A study of Aspergillus glaucus with 6 samples.

Results

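The extreme-salt comparison set mycelium of Aspergillus glaucus CCHA kept in 4 M NaCl for 84 h against mycelium kept in 0 M NaCl for 84 h, with 1 RNA sequencing library on each side. These are 2 of the 6 libraries of the series. They are the library labelled 4 M and the library labelled 0 M at 84 h. The other 4 libraries are 1 each in 1 M and 3 M NaCl at 84 h and at 36 h. They enter the scaling factors, serve to place the genes that differed, and are compared by the same rule at the end. All 6 libraries are of the single strain CCHA, of total RNA from filtered mycelium, and with 1 library per condition nothing shows how much cultures vary, so no difference given here carries a p-value. The labels give no growth stage, medium or pre-culture, and the cell type label reads only "cell". Without gene names it could not be checked against markers of hyphae, spores or fruiting bodies.

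A. glaucus is a filamentous ascomycete that grows in salted and sugared substrates with little free water. Salt confronts a fungal cell with loss of water and with entry of sodium ions. As background from yeasts and other Aspergillus species, the high-osmolarity glycerol (HOG) kinase pathway senses the loss of water, the cell accumulates glycerol and other small solutes, and membrane pumps expel sodium. None of these genes could be picked out here, since the files list bare gene IDs, and a search among 11428 RefSeq genes annotated in a different strain of the species matched 0 of them. The differences are therefore described by read level and by size of change, and only 4 genes are named by ID.

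The library in 4 M held 18009549 counts and the library in 0 M held 16371771. A level below is in CPM, that is, counts scaled to library size, here with TMM factors (trimmed mean of M values), and a fold change is the log2 ratio of 4 M over 0 M with a prior count of 2. Gene lengths were not analysed here, so a level is a share of reads and not of molecules: a long transcript takes more reads than a short one. Of 8331 gene IDs with a read in at least 1 of the 2 libraries, 6391 reached 10 CPM in at least 1 and were compared. The compared genes held 99.7% of counts in 4 M and 99.5% in 0 M. With a threshold of 4-fold, 3.24% of compared genes were higher in 4 M and 9.98% were lower. In such bulk RNA, fewer cells of a type and less RNA per cell cannot be told apart. In the plot of both read levels, the genes lower in 4 M fill a wide field below the diagonal, while fewer points lie far above it.

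**Figure D1:**
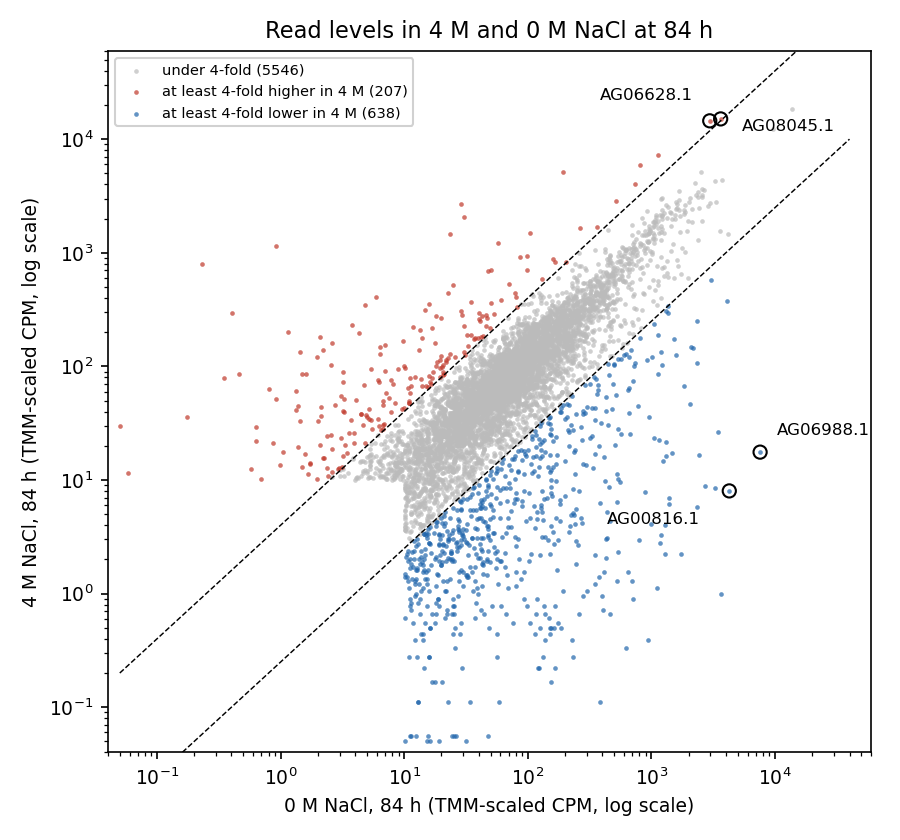
Each point is 1 of the 6391 compared genes, placed by its TMM-scaled CPM in 4 M (vertical, log scale) and in 0 M (horizontal, log scale) at 84 h, with genes without a read drawn at 0.05 CPM. Dashed lines mark 4-fold differences; 207 genes are higher and 638 lower in 4 M, and the 4 circled genes are those with the largest CPM gains and losses.

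Among genes of at least 100 CPM in at least 1 of the 2 libraries, here called abundant, 93 were higher in 4 M by 4-fold or more (gains) and 260 were lower by 4-fold or more (losses), of 2634 compared. These are 3.53% and 9.87% of the abundant genes, close to the 3.24% and 9.98% over all genes compared, so abundant genes as a whole were called about as often as the rest. The counting interval of the ratio lay wholly beyond 4-fold for 89 of the 93 and 249 of the 260. At the level of 1000 CPM the shares were larger: 15 of 214 genes (7.01%) were gains and 41 (19.2%) were losses. This level is that of the higher library, which draws changed genes in. By mean CPM of the 2 libraries, 6.85% of 146 genes from 1000 CPM were gains and 10.3% were losses. The larger share of losses thus depends on how level is defined. Just inside the threshold, the smallest gain was 126 CPM in 4 M against 31.2 CPM in 0 M, and the smallest loss was 31.7 CPM in 4 M against 128 CPM in 0 M. Just outside it stood a gene with 431 CPM in 4 M against 108 CPM in 0 M and one with 146 CPM in 4 M against 581 CPM in 0 M. A further 232 abundant genes were 2-fold to 4-fold higher and 189 were 2-fold to 4-fold lower.

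The reads gained by abundant genes in 4 M were concentrated in a few of them. AG06628.1 had the largest gain, with 260489 counts (14501 CPM) in 4 M and 51238 counts (2962 CPM) in 0 M, which is a log2 fold change of 2.29 with an exact 95% counting interval from 2.28 to 2.31. By reads it ranked number 3 in 4 M and number 17 in 0 M, so it was among the leading transcripts in both cultures. AG08045.1 was next, with 270749 counts (15072 CPM) in 4 M and 62793 counts (3629 CPM) in 0 M, which is a log2 fold change of 2.05 (interval 2.04 to 2.07). Its call depends on the scaling: with library totals alone its log2 fold change was 1.97, just under 4-fold.

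Across the salt series at 84 h these 2 genes did not follow the concentration step by step. The levels of AG06628.1 were 2962 CPM in 0 M, 2373 CPM in 1 M, 5770 CPM in 3 M and 14501 CPM in 4 M. Those of AG08045.1 were 3629 CPM in 0 M, 1278 CPM in 1 M, 4535 CPM in 3 M and 15072 CPM in 4 M. Both were thus lowest in 1 M and highest in 4 M among the 84 h libraries. At 36 h AG06628.1 had 9791 CPM in 3 M and 3892 CPM in 1 M, and AG08045.1 had 16245 CPM in 3 M and 3108 CPM in 1 M.

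Together AG06628.1 and AG08045.1 made up 29.4% of the share of reads gained by the 93 genes, the first 5 made up 50.2% and the first 10 made up 65.4%. With library totals alone AG08045.1 was under 4-fold and would leave the set, and these shares were not recomputed without it. Of the first 10, the third by gain had 7196 CPM in 4 M against 1119 CPM in 0 M. The fourth had 5918 CPM in 4 M against 806 CPM in 0 M. The fifth had 5169 CPM in 4 M against 194 CPM in 0 M. These were already well read in 0 M. Others were at a low level there: the seventh had 2698 CPM in 4 M against 29.0 CPM in 0 M, the ninth 2071 CPM against 30.2 CPM, and the tenth 1476 CPM against 23.6 CPM. The ninth already stood at 1996 CPM in 3 M at 84 h, whereas the third stood at 321 CPM and the tenth at 41.0 CPM there, so the gains did not share one course over salt. A single gene with at least 1000 CPM in 4 M was under 1 CPM in 0 M, at 1137 CPM in 4 M against 0.925 CPM in 0 M.

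The losses were spread over many more genes. AG06988.1 had the largest loss, with 316 counts (17.6 CPM) in 4 M and 130903 counts (7566 CPM) in 0 M, which is a log2 fold change of -8.74 with an interval from -8.91 to -8.59. By reads it ranked number 5142 in 4 M and number 3 in 0 M. AG00816.1 was next, with 144 counts (8.02 CPM) in 4 M and 73726 counts (4261 CPM) in 0 M, which is a log2 fold change of -9.03 (interval -9.30 to -8.82). By reads it ranked number 5867 in 4 M and number 4 in 0 M.

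Both genes were still strongly read in 1 M and 3 M at 84 h. The levels of AG06988.1 were 7566 CPM in 0 M, 11473 CPM in 1 M, 9983 CPM in 3 M and 17.6 CPM in 4 M. Those of AG00816.1 were 4261 CPM in 0 M, 4479 CPM in 1 M, 3176 CPM in 3 M and 8.02 CPM in 4 M. In 3 M, AG06988.1 was above its 0 M level and AG00816.1 somewhat below it. At 36 h, in contrast, AG06988.1 had 17.7 CPM in 3 M and 11675 CPM in 1 M, and AG00816.1 had 8.70 CPM in 3 M and 2651 CPM in 1 M. The library in 3 M at 36 h was therefore about as low for these 2 genes as the library in 4 M at 84 h.

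AG06988.1 and AG00816.1 made up 8.58% of the share of reads lost by the 260 genes, the first 5 made up 16.4% and the first 10 made up 26.0%. It took 33 genes to account for 50% of this loss, against 5 genes for 50% of the gain of the 93. Of the 10 largest losses, 8 left under 30 CPM in 4 M. The 2 exceptions were the third, with 374 CPM in 4 M against 4058 CPM in 0 M, and the eighth, with 575 CPM in 4 M against 3006 CPM in 0 M. The fourth was at 1.00 CPM in 4 M against 3677 CPM in 0 M, and the sixth at 8.52 CPM against 3260 CPM. Their courses at lower salt differed. At 84 h the sixth had 368 CPM in 1 M and 458 CPM in 3 M, well below 0 M, whereas the eighth had 3836 CPM in 1 M and 9091 CPM in 3 M, above it. Of the 41 losses from at least 1000 CPM, 12 were above their 0 M level in 1 M and 14 in 3 M. Over all genes compared, the median log2 fold change against 0 M was -0.03 in 1 M and -0.01 in 3 M. The 41 were chosen as high in 0 M, which leans these counts downward.

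Gains and losses differed in how far the lower of the 2 libraries reached down. Of the 93 abundant genes higher in 4 M, 74 had at least 10 CPM in 0 M, 16 had 1 to 10 CPM and 3 had under 1 CPM, with a median of 30.3 CPM in 0 M. Of the 260 abundant genes lower in 4 M, 144 had at least 10 CPM in 4 M, 84 had 1 to 10 CPM and 32 had under 1 CPM, with a median of 13.6 CPM in 4 M. Genes under 10 CPM were thus 20.4% of the gains and 44.6% of the losses. Of all 6391 genes compared, 6116 had at least 10 CPM in 0 M and 5681 in 4 M. Genes under 10 CPM were thus also more frequent in 4 M over all genes compared. The 2 sets had similar levels on their high side, with medians of 266 CPM in 4 M for the gains and 263 CPM in 0 M for the losses. No gene of either set was without a read.

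**Figure D2:**
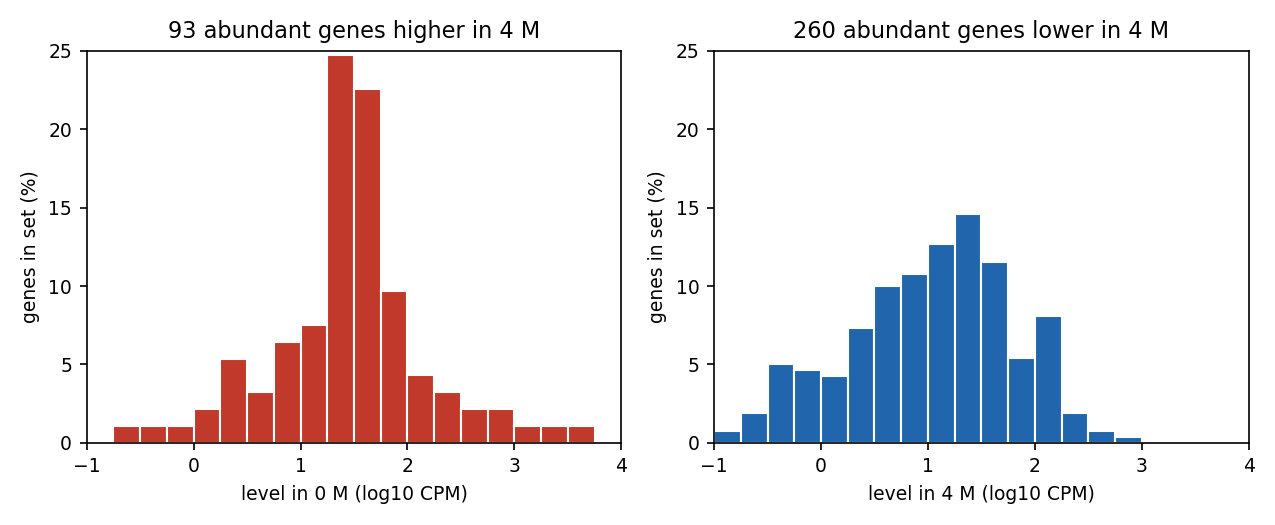
Percent of genes in each bin of level in the library where the set is low: 0 M for the 93 abundant genes higher in 4 M (left), 4 M for the 260 abundant genes lower in 4 M (right), on a log10 CPM axis. The gains have a median of 30.3 CPM in 0 M with 3 genes under 1 CPM, and the losses a median of 13.6 CPM in 4 M with 32.

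By size of change, 49 of the 93 gains (52.7%) were between 4-fold and 8-fold, 16 between 8-fold and 16-fold, 11 between 16-fold and 32-fold, 7 between 32-fold and 64-fold, and 10 (10.8%) at least 64-fold. Of the 260 losses, 72 (27.7%) were between 4-fold and 8-fold, 45 between 8-fold and 16-fold, 37 between 16-fold and 32-fold, 31 between 32-fold and 64-fold, and 75 (28.8%) at least 64-fold. The median log2 fold change was 2.88 for the gains and -4.37 for the losses. The sets were chosen by this ratio, so medians beyond 4-fold follow from the choice. Over all genes compared the median was 0.11. In the highest level class, the 15 gains from at least 1000 CPM had a median of 2.88 and included 3 of at least 64-fold, and the 41 losses had a median of -5.66 and included 19 of at least 64-fold.

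The share of genes called lower depended on read level. By mean CPM of the 2 libraries, 18.5% of 1672 genes under 30 CPM were 4-fold losses, against 6.43% of 2534 genes at 30 to 100 CPM and 6.21% of 1563 genes at 100 to 300 CPM. The share was 11.1% of 476 genes at 300 to 1000 CPM and 10.3% of 146 genes from 1000 CPM. Gains made up 4.49%, 2.60%, 2.56%, 3.36% and 6.85% of the same 5 classes. By this mean level, losses were most frequent in the class of weakly read genes and least frequent in the 2 classes between 30 and 300 CPM. The entry rule bears on the lowest class, since weakly read genes under 10 CPM in both libraries were left out. Of the 6391 genes compared, 6116 reached 10 CPM in 0 M and 5681 in 4 M, so more entered through 0 M alone. Such genes are lower in 4 M by the rule itself, and their part in the 18.5% was not measured. All 310 weakly read losses had counting intervals wholly beyond 2-fold. Classes by mean level lower the count in the top class, since a lost gene averages well below its level in 0 M: by the level in the higher library, losses were most frequent from 1000 CPM, with 19.2% against 16.2% under 30 CPM, so the order of these 2 classes depends on how level is defined.

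**Figure D3:**
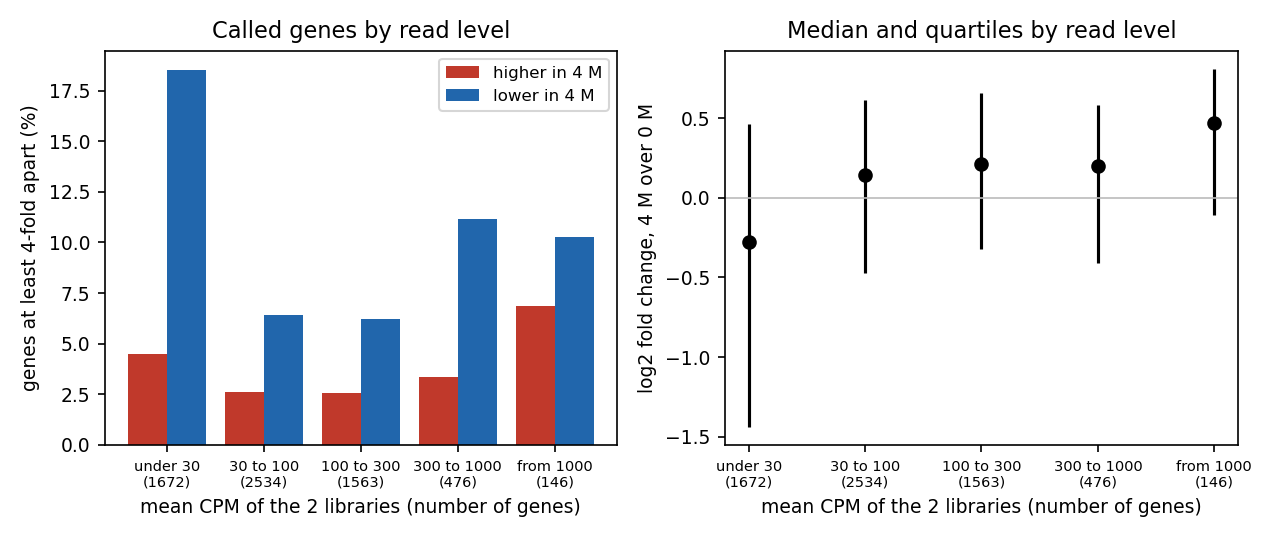
Left, percent of compared genes at least 4-fold higher or lower in 4 M than in 0 M, by class of mean CPM of the 2 libraries, with the number of genes in brackets. Right, median log2 fold change (points) and quartiles (lines) in the same classes; the median is -0.27 under 30 CPM and 0.47 from 1000 CPM.

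The median log2 fold change also differed by level. It was -0.27 for genes under 30 CPM, 0.14 at 30 to 100 CPM, 0.21 at 100 to 300 CPM, 0.20 at 300 to 1000 CPM and 0.47 from 1000 CPM. In the top class 74.0% of genes were above 0, against 40.6% in the lowest. The values of the lowest class lean downward through the entry rule, since more genes reached 10 CPM in 0 M alone than in 4 M alone. The size of this lean was not measured. The genes from 1000 CPM took 32.6% of reads in 4 M and 27.6% in 0 M. In 4 M, 389 genes sufficed for 50% of the reads, against 481 in 0 M.

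The 100 genes with most reads in 4 M and the 100 with most reads in 0 M had 54 genes in common. The gene with most reads was the same in both, with 18589 CPM in 4 M and 13588 CPM in 0 M (log2 fold change 0.45). Of the 46 genes only in the 4 M list, 11 were 4-fold gains, so most entered by a smaller change. Of the 46 only in the 0 M list, 31 were 4-fold losses, and 16 of these were 64-fold or more. In 0 M, 5 of the 100 leading genes of 4 M ranked below number 1000, and in 4 M, 25 of the 100 leading genes of 0 M did. Genes picked as highest in one library lean lower in the other. This applies to both lists, and its size in each was not measured. Of the 214 genes with at least 1000 CPM in 1 of the 2 libraries, 128 (59.8%) differed less than 2-fold and 68 (31.8%) less than 1.5-fold.

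In shares of all reads, 28.0% of the library in 4 M lay in excess of the shares in 0 M, and the same amount was missing elsewhere. Genes with changes under 2-fold held 50.5% of this gain, through 2531 genes that took 56.1% of reads in 4 M and 42.0% in 0 M. Gains of 4-fold to 16-fold held 21.8% of it, and gains of at least 64-fold held 3.03%. On the loss side, changes under 2-fold held 22.7%, those of 4-fold to 16-fold held 21.2%, and those of at least 64-fold held 24.1%. Those of at least 64-fold were 102 genes with 0.0257% of reads in 4 M and 6.76% in 0 M. Deep changes thus held a larger part of the loss than of the gain, and changes under 2-fold a larger part of the gain. Shares of reads sum to a fixed total, so a loss in some genes raises the share of all others, and these small gains cannot be told apart from that effect.

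**Figure D4:**
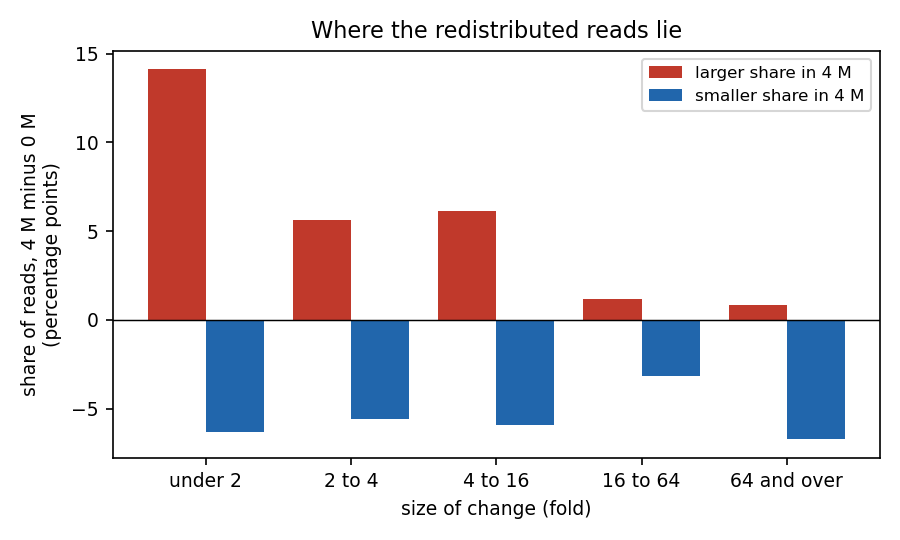
Summed difference in share of reads, 4 M minus 0 M, in percentage points, for genes with a larger or a smaller share in 4 M, by size of the fold change between 4 M and 0 M. Gains are largest in the class under 2-fold (14.1 points). Losses are -6.34 points under 2-fold, -5.57 points at 2-fold to 4-fold and -5.94 points at 4-fold to 16-fold. They are -3.14 points at 16-fold to 64-fold and -6.74 points from 64-fold.

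The libraries that the rule did not compare place the abundant genes along the salt series. At 84 h the 260 losses took 15.5% of reads in 0 M, 13.3% in 1 M, 13.5% in 3 M and 0.917% in 4 M. Their median level was 263 CPM in 0 M, 212 CPM in 1 M, 167 CPM in 3 M and 13.6 CPM in 4 M, and the number under 10 CPM was 0, 3, 9 and 116 in the same order. The summed share was thus lowest in 4 M, but it is carried by strongly read members and hides others that were already lower in 1 M or 3 M. The lower quartile of the 260 was 152 CPM in 0 M, 104 CPM in 1 M, 73.1 CPM in 3 M and 3.41 CPM in 4 M. Against the shared 0 M library, the median log2 fold change of the 260 was -0.27 in 1 M, -0.85 in 3 M and -4.37 in 4 M. The 93 gains took 1.44% of reads in 0 M, 1.20% in 1 M, 2.83% in 3 M and 9.12% in 4 M. Their median was 30.3 CPM in 0 M, 40.6 CPM in 1 M, 77.0 CPM in 3 M and 266 CPM in 4 M. Both sets were chosen for their 0 M and 4 M values, so those ends are fixed by the choice. The choice used no levels in 1 M or 3 M, but differences from the shared 0 M library still lean with it. Genes picked as high in 0 M lean lower elsewhere, and genes picked as low lean higher. The size of this lean was not measured. The widest exact 95% interval of these shares spanned 0.035 percentage points, which covers counting error only.

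**Figure D5:**
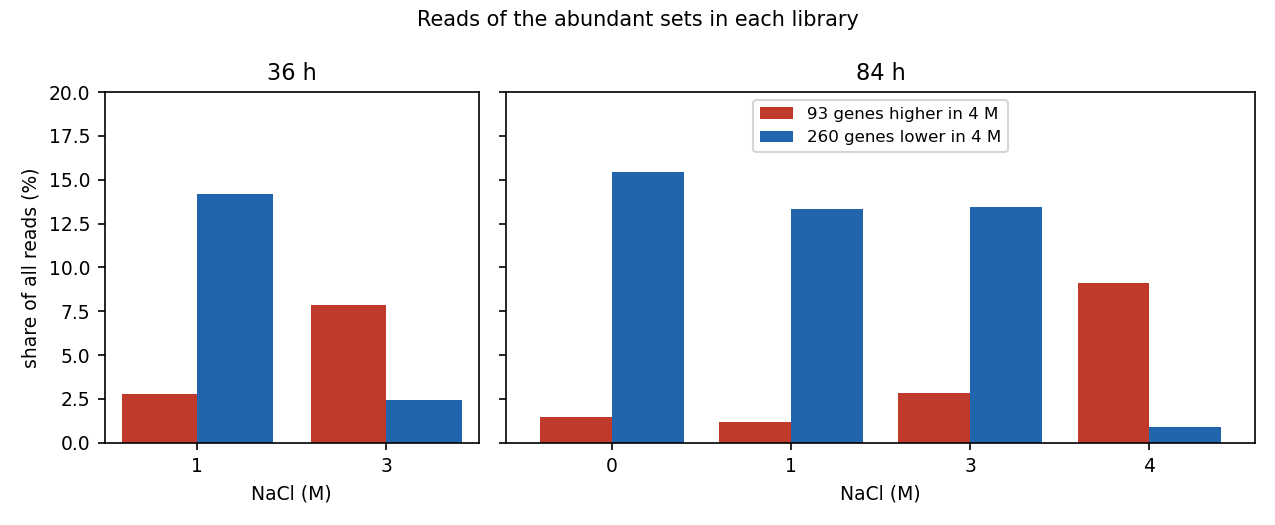
Share of all reads taken by the 93 abundant genes higher in 4 M and the 260 abundant genes lower in 4 M, in each of the 6 libraries, by NaCl concentration at 36 h (left) and 84 h (right). The 260 genes take 2.45% in 3 M at 36 h and 0.917% in 4 M at 84 h, against 13.3% to 15.5% in the other 4 libraries.

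At 36 h, neither library was used to choose the sets except through the TMM factors. There the 260 genes took 2.45% of reads in 3 M and 14.2% in 1 M. The 93 genes took 7.84% in 3 M and 2.81% in 1 M. Of the 260, 257 could be compared at 36 h, and 178 of these were lower by 4-fold or more in 3 M, as were 8.82% of all genes compared at 36 h. None of the 257 was higher by as much. All of the 93 could be compared, and 46 were higher by 4-fold or more in 3 M, as were 2.05% of all genes compared at 36 h. None of the 93 was lower by as much. The median log2 fold change at 36 h was -2.86 for the losses and 1.98 for the gains, against 0.06 over all genes compared there. For the 41 losses from at least 1000 CPM it was -3.94, with 29 lower by 4-fold or more. That the library in 3 M at 36 h resembles the one in 4 M at 84 h was known when the sets were chosen, so these counts are no independent evidence of it.

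Set beside the other salt concentrations at 84 h, which share the 0 M library, 4 M had the largest number of abundant losses. By the same rule against 0 M there were 132 abundant gains (5.23%) and 68 abundant losses (2.70%) of 2523 genes in 1 M. In 3 M there were 53 gains (2.15%) and 79 losses (3.21%) of 2463 genes, and in 4 M there were 93 gains and 260 losses of 2634 genes. Losses from at least 1000 CPM numbered 10 in 1 M, 11 in 3 M and 41 in 4 M, while gains to at least 1000 CPM numbered 16, 7 and 15 in the same order. Gains were thus the more numerous in 1 M, and losses in 3 M and 4 M. Losses also outnumbered gains between 3 M and 1 M at 36 h, where there were 68 abundant gains (2.68%) and 209 abundant losses (8.22%) of 2542 genes, and 27 losses from at least 1000 CPM. The excess of losses is therefore not particular to 4 M against 0 M. With 1 library per condition these differences were not tested.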

How the data were processed

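RNA was sequenced from mycelium, 1 library per condition. The authors deposited raw read counts per gene ID, 1 file per library, with no normalization. The submitters' processing notes list TopHat2 2.0.8b and HTSeq 0.5.4p2. The sources used here give no genome build, annotation, strand setting or filter. Whether reads of paralogs, overlapping genes and antisense partners were shared between IDs or left out is therefore not known. IDs absent from a file were counted as 0. Totals ran from 16371771 to 18376857 counts over the 6 libraries, and 3 counts, the limit that a count of 0 allows, are 0.167 CPM in 4 M and 0.173 CPM in 0 M at 84 h.

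TMM factors over all 6 libraries came from edgeR 4.0.16 in R 4.3.3, and DESeq2 1.42.0 gave alternative size factors. Fold changes used a prior count of 2 scaled to library size, a minimum of 10 CPM in 1 of the 2 libraries and a threshold of 4-fold. Intervals of ratios and shares are exact (Clopper-Pearson, 95%, SciPy 1.17.1) and cover counting error only, not differences between cultures. Reads counted without molecular identifiers can be copies of 1 molecule, so the intervals may be too narrow even for that. Named genes are the 2 with the largest gain and the 2 with the largest loss in CPM among 4-fold genes whose interval excludes 2-fold; other genes are given by rank. The comparison, sets and levels were chosen with earlier results of these data known.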

Additional observations from a re-analysis of the deposited data

How the results depend on the processing

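The counts of genes 4-fold higher (207) and lower (638) stayed within 1.5 times with DESeq2 size factors, library totals, TMM factors from the 2 libraries, a CPM minimum of 1, prior counts of 0.5 and 5, and intervals beyond 2-fold or 4-fold. A CPM minimum of 50 gave 136 and 342, and no minimum gave 974 lower; fewer or more genes are then compared. The abundant losses numbered 165 with a mean of 100 CPM required over the 2 libraries, a stricter level for a lost gene, and the other alternatives for abundant gains and losses gave 66 to 95 and 249 to 277. With level classes from the mean of all 6 libraries, 15.4% of genes under 30 CPM were lower. With classes from the higher library, 3.17% under 30 CPM were higher, and the lower genes were 16.2% under 30 CPM, 7.75% at 100 to 300 CPM and 19.2% from 1000 CPM. Summed as TMM-scaled CPM, the abundant gains took 1.37%, 1.22%, 2.69% and 9.14% at 84 h (0 M to 4 M), and 8.68% in 3 M and 2.76% in 1 M at 36 h. The abundant losses then took 14.6%, 13.6% and 12.8% in 0 M, 1 M and 3 M at 84 h, and 2.72% in 3 M and 13.9% in 1 M at 36 h. None of the 4 named genes changed direction under the 5 alternatives run on them, though AG08045.1 was under 4-fold with library totals (log2 fold change 1.97). No paired analysis was possible because each condition has 1 library. No replicate could be left out for the same reason. Genes near 0 reads in 1 library have fold changes that depend on the prior count, and no depth of reading makes up for missing replicate cultures.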

Other observations

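Reads present in only 1 of the 2 libraries were few. In 4 M, 92 gene IDs had a read that had none in 0 M, with a median of 2 counts and a highest of 533. In 0 M, 193 had a read that had none in 4 M, with a median of 3 counts and a highest of 551. Every one of the 93 abundant gains and 260 abundant losses had a read in both libraries.

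Some members of the abundant sets had consecutive ID numbers. Of the 260 abundant losses, 47 (18.1%) had an ID next to that of another of the 260, while 5.79% of all 6391 compared genes had an ID next to one of them. Of the 93 abundant gains, 11 (11.8%) were next to another of the 93, against 2.13% of all compared genes. Whether the ID numbers follow the order of genes on the genome was not analysed here.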
